A study of Mus musculus with 61 samples.

Results

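Chemokine ligands are small secreted proteins that steer the movement of leukocytes through receptors on the target cell. The 10 genes described here were Ccl2, Ccl3, Ccl4, Ccl5, Ccl6, Ccl7, Ccl9, Ccl12, Pf4 and Cxcl13, taken by name. Their members in the data were the 70 windows, of 133129 in all, that the submitters' annotation assigned to these genes as the nearest, together with the transcription factor peaks and nuclear H3K27ac regions that overlapped those windows or the gene bodies with 5 kb on each side. Ccl12 had 12 windows, Ccl2 and Cxcl13 had 11 each, Ccl3, Ccl5 and Ccl9 had 7 each, Ccl4 and Ccl6 had 5 each, Pf4 had 3 and Ccl7 had 2.

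The study compared wild-type (WT) mice, of the strain labelled C57/Bl6 and named C57BL/6J in the methods, with mice carrying a homozygous deletion of a microglial Sall1 enhancer (EKO), made by CRISPR and crossed to the same background. By the study's methods the C57BL/6J and EKO mice were male and 8 to 12 weeks old. The methods text gives no age for the PWK and SPRET mice. SALL1 is a zinc finger factor that marks microglia, the resident macrophages of the brain. Histone H3 acetylated at lysine 27 (H3K27ac), which is found at promoters and enhancers in use, was measured by ChIP-seq in microglia sorted as CD11b positive, CD45 low and CX3CR1 positive (2 libraries per genotype), and in PU1 (myeloid), Olig2 (oligodendrocyte lineage) and NeuN (neuronal) nuclei (2 libraries per genotype each). Peaks of SALL1 came from WT, EKO and the wild-derived strains PWK and SPRET, peaks of SMAD4 from WT and from libraries labelled mutant, and peaks of the co-activator p300 from 3 WT libraries. For the SMAD4 libraries labelled mutant, titles point to a conditional knockout of Smad4, whereas description and inputs point to the EKO. The paper reports SMAD4 ChIP-seq in EKO microglia and describes none in Smad4 knockout microglia. By its methods, mice with the inducible Smad4 deletion were males given tamoxifen just after birth and collected at 2 weeks of age. Library 1 of p300 is labelled microglia and the others PU1 nuclei, and SALL1 libraries are labelled microglia where the methods name sorted nuclei. No label states that the libraries of a group came from separate animals, so p-values measure only the spread between these libraries. In these bulk samples a change in the share of a cell type cannot be told apart from a change within each cell.

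The labels held at the targeted gene. At the Sall1 TSS window, H3K27ac was 241 and 108 normalized tags in WT against 0 and 2.24 in EKO, and all 29 tested Sall1 windows lost signal. Depths ran from 9963450 to 24357800 tags, so that 1 read was worth 0.411 to 1.00 tags on the deposited scale. EKO library 1 stood high: its median window was at 6.41 on the log2 scale, while WT windows had medians of 5.57 and 5.20 and EKO library 2 had 4.95. Therefore the windows were tested after quantile normalization, which gives every library the same distribution. EKO library 2 had the lowest level of the 4, so a window that is higher there than in both WT libraries is higher against that trend. The TSS windows of 6 microglia markers summed to 1170 and 771 tags in WT and 1326 and 394 in EKO. Those of border macrophage markers (3 of 6 genes with a TSS window) summed to 36.1 and 16.9 against 273 and 119, and those of monocyte markers (3 of 5) to 43.9 and 35.8 against 600 and 185. Of the tested windows, 16 of 27 gained and 0 lost for border macrophage markers, with the gains at 3 of 6 genes. For monocyte markers 14 of 23 gained and 2 lost, with gains at 2 genes and losses at 1. For lymphocyte markers, which had no TSS window, 6 of 6 gained, at 2 genes. For microglia markers 35 of 137 lost and 0 gained, and 29 of the losses were the windows of Sall1 itself. Over the whole table, 8.68% of tested windows gained and 7.56% lost. Neutrophil markers (1 of 5) stayed at or below 6.16 tags in each library. Other lists went down: astrocyte markers lost 14 of 19 tested windows, with TSS sums of 43.9 and 35.8 tags in WT and 18.1 and 4.48 in EKO, oligodendrocyte lineage markers lost 8 of 17, and endothelial markers lost 3 and gained 2 of 10, with TSS sums of 45.2 and 32.8 against 19.1 and 11.2. The neuron markers had 1 tested window, which was not called. The part of these other cell types in the results below was not tested.

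The CC ligands lie in a pair of clusters on chromosome 11 (mm10). Ccl2, Ccl7 and Ccl12, whose proteins draw monocytes through CCR2, lie between positions 82035571 and 82103400. Ccl5, Ccl9, Ccl6, Ccl3 and Ccl4, several of whose proteins act through CCR1, lie between 83525778 and 83664683. Pf4, also called CXCL4 and best known from platelet granules, and Cxcl13, which draws B cells through CXCR5, lie on chromosome 5 at 90772435 to 90773383 and 95956951 to 95961068. Microglia and other macrophages can make several of these ligands, with Ccl3 and Ccl4 typical of activation and Pf4 among the genes of brain border macrophages.

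Sequences are given below for the elements on which the results turn. Promoters are RefSeq sequences on the strand of the gene (GRCm38.p6) and were at hand for 6 of the 10 members, Ccl3, Ccl6, Ccl9, Ccl12, Pf4 and Cxcl13. Enhancer elements are 300 bases of the plus strand of the same build, around the centre of a peak or window. Capitals mark matches, on either strand, to GAGGAAGT (PU.1), TGANTCA (AP-1), TTGCNNAA (C/EBP), GTCTAGAC (SMAD palindrome), CAGAC (SMAD half-site), and the kappaB and MEF2 consensus. The half-site was added after the sequences were seen.
Pf4 promoter, chr5:90772185-90772484, plus strand: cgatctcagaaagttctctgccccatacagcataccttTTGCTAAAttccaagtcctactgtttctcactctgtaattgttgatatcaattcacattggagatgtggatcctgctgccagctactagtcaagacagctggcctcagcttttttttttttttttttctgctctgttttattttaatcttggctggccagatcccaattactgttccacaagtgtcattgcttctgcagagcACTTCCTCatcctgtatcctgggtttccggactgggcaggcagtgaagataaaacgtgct
Ccl12 promoter, chr11:82101595-82101894, plus strand: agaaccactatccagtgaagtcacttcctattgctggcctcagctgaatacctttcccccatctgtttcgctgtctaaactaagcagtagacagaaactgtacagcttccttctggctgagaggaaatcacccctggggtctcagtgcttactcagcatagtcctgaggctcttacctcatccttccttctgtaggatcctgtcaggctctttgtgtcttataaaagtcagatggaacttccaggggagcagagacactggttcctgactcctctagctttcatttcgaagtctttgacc
Ccl2 upstream element around its top SALL1 peak in a gaining window, chr11:82022732-82023031: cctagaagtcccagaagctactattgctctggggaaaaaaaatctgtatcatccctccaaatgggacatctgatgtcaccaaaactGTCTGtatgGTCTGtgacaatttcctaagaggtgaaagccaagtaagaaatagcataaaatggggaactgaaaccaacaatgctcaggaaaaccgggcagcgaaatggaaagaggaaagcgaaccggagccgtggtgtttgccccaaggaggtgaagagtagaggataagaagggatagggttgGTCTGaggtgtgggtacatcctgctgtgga
Ccl2 far upstream element, the centre of the lead window, chr11:82007098-82007397: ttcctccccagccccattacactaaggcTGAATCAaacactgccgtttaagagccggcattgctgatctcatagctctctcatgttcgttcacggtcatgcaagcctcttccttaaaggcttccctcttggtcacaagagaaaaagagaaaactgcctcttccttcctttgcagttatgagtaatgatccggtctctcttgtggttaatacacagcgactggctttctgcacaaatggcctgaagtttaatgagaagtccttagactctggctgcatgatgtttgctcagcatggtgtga
Ccl9 downstream element around the SMAD4 peak, chr11:83565501-83565800: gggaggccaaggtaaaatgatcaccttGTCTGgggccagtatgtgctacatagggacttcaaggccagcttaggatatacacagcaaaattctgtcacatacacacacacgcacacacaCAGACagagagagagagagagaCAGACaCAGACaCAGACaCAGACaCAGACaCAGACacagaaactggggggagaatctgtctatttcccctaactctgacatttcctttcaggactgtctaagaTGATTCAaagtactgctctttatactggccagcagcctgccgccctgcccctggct

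In the Pf4 promoter, 1 PU.1 match and 1 C/EBP match were found, motifs that 3.20% and 10.8% of 32851 promoters of this length held. The Ccl12 promoter held no match. Each of the Ccl2 far upstream and Ccl9 downstream elements held 1 AP-1 match, which 10.1% of 132858 window centres of 300 bases held. The half-site occurred 3 times in the Ccl2 upstream element and 8 times in the Ccl9 downstream element, most of them inside a run of repeats. At least 3 copies were found in 5.79% of window centres and at least 8 in 0.0851%. A match is a description of letters and not a binding site.

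Across all members, 39 windows had a mean above 16 tags and were tested, and 31 did not. H3K27ac rose in 9 of the 39 (23.1%), where 8.68% of all 55285 tested windows gained, and fell in 4 (10.3%), where 7.56% of all windows lost (limma, Benjamini-Hochberg adjusted p below 0.05 and fold above 2). The filter took the mean of all 4 libraries, so a window low in WT could enter through EKO, here and in the other lists. Apart from Ccl12 at −13650 bp (32.2), the gaining windows had WT means of 3.67 to 15.4 tags. They were thus tested only through their EKO values, so the gaining share is not independent of the filter. The 4 losing windows had WT means of 28.7 to 102 tags. Overlapping windows share tags, and merging them left 7 gaining and 3 losing stretches. The median log2 change of the member windows was 0.12, and that of all tested windows −0.03. Of all calls in the table, 53.5% were gains. On the values as deposited, where the level of EKO library 1 enters the spread, the gains were 86.4% of all calls and no member window was called, against 0.814% of all windows gaining and 0.128% losing. There, 9 of the 39 had an unadjusted p below 0.05, and the smallest adjusted p was 0.0524. edgeR called 9 gaining and 4 losing member windows on the recovered whole tags, and DESeq2 called 9 and 3. In limma with WT library 1 or EKO library 1 left out, no window of the whole table was called, and without WT library 2 or EKO library 2 the members had 5 and 4 gaining and 0 and 1 losing windows. With 1 library left out, edgeR called 8 to 11 gaining and 1 to 5 losing member windows, and 7 of the 9 gains and 1 of the 4 losses were called whichever library was left out. The losing count of 1 came without WT library 1. In deposited tags the 2 EKO libraries lay above the WT libraries at 15 of the 70 windows, where 21.3% of all windows did, and below them at 5, where 8.83% did, so separation alone did not set the members apart.

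**Figure D1:**
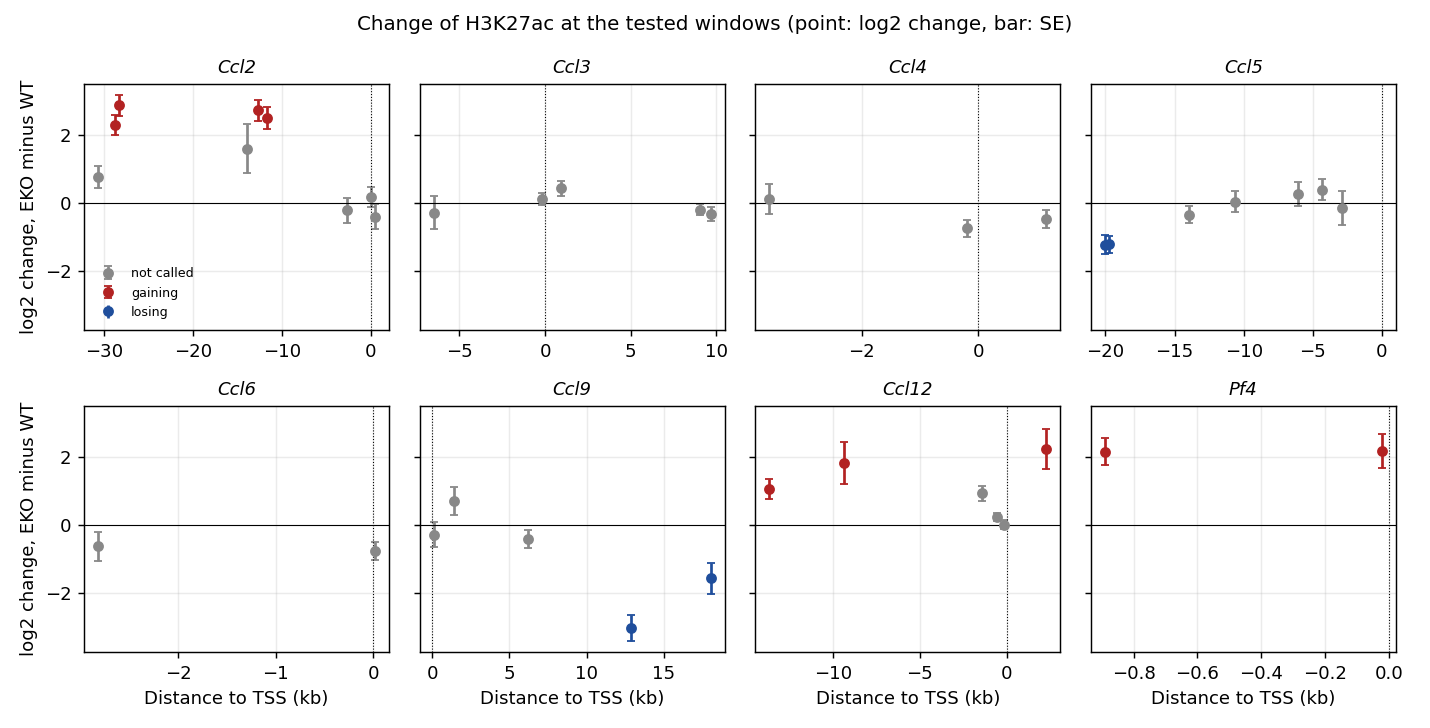
Log2 change of H3K27ac (EKO minus WT, after quantile normalization, vertical axis) against the distance to the TSS in kb (horizontal axis) for the 39 tested windows of 8 genes, with SE bars. The 9 gaining windows (red) lie at Ccl2, Ccl12 and Pf4 and the 4 losing windows (blue) at Ccl5 and Ccl9.

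By the assignment to the nearest gene, the gains lay at Ccl2, Ccl12 and Pf4, and the losses at Ccl5 and Ccl9. All 4 losing windows lie in the intergenic stretch between the Ccl5 and Ccl9 genes. Of the 13 called windows, 6 gaining and 4 losing ones lay over 3000 bp from a TSS. No tested window of Ccl3, Ccl4 or Ccl6 was called, and no window of Ccl7 or Cxcl13 reached the level for testing.

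At Ccl2, the monocyte-attracting ligand also known as MCP-1, the gained signal lay upstream and not at the promoter. The lead window at −28330 bp, the far upstream element printed above, held 13.6 and 8.96 tags in the WT libraries and 183 and 74.7 in the EKO libraries. The EKO libraries did not overlap the WT libraries, and the lower EKO value exceeded the higher WT value by far. The log2 change was 2.88 (SE 0.31, 7.37-fold, limma adjusted p = 9.05e-07). The window at −28680 bp, which overlaps it, changed by 2.30 (SE 0.30, limma adjusted p = 9.42e-06).

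Closer to Ccl2, the window at −12718 bp held 17.2 and 8.96 tags in WT and 220 and 62.0 in EKO, and the log2 difference was 2.74 (SE 0.31, 6.67-fold, limma adjusted p = 1.88e-06). At −11638 bp the values were 10.3 and 16.9 against 202 and 55.2, which differ by 2.51 on the log2 scale (SE 0.32, limma adjusted p = 9.04e-06). Both sites were separated in every library. At the Ccl2 TSS window, by contrast, the libraries overlapped, with 52.1 and 27.9 tags in WT and 87.3 and 31.4 in EKO and a log2 difference of 0.17 (SE 0.29, limma adjusted p = 0.725). The 11 Ccl2 windows summed to 240.2 and 150.3 tags in WT and to 1109 and 376 in EKO.

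Ccl12, another CCR2 ligand of the mouse, had the highest promoter signal of the 8 members with a TSS window, and the signal there hardly moved. Its TSS window held 477 and 387 tags in WT and 902 and 306 in EKO, which overlap, with a log2 difference of 0.02 (SE 0.12, limma adjusted p = 0.930). This window was above 98.1% of the 13375 genes' TSS windows in WT and 97.8% in EKO. Over the 4 libraries, the TSS windows most like it among 9310 genes were those of Etf1, Zcchc9 and Usp38, at Euclidean distances of 0.0665, 0.0826 and 0.103 on the quantile-normalized log2 scale.

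Around the Ccl12 promoter the signal was higher in EKO. The window at 2266 bp, at the end of the gene, held 5.34 and 1.99 tags in WT and 51.2 and 19.4 in EKO (log2 change 2.24, SE 0.59, limma adjusted p = 0.00802). At −9381 bp it held 7.39 and 1.99 against 41.2 and 17.2 (1.83, SE 0.62, limma adjusted p = 0.0355). At −13650 bp, where 41.5 and 22.9 tags in WT stood against 170 and 38.1 in EKO, deposited values overlapped and the change was 1.08 (SE 0.29, limma adjusted p = 0.0105). In edgeR this call was lost without EKO library 1 (adjusted p = 0.187), and that at −9381 bp without EKO library 2 (adjusted p = 0.0566). The lead window of Ccl12, at −1448 bp, changed by 0.94 (SE 0.22, limma adjusted p = 0.00314) and stayed under the fold of 2, but edgeR called it without WT library 1 (1.01) or EKO library 2 (1.12). Of the 12 Ccl12 windows, 5 came from the EKO list of open chromatin alone and 1 from the WT list, on the reading that the table's origin names mean those lists.

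Pf4 was the single member whose promoter window was called. Its TSS window held 3.28 and 11.9 tags in WT and 68.2 and 32.9 in EKO, which did not overlap, and the log2 difference was 2.18 (SE 0.50, 4.53-fold, limma adjusted p = 0.00282). Its size rested on the WT libraries: the difference was 1.35 in limma without WT library 1 (adjusted p = 0.176) and 2.89 without WT library 2 (adjusted p = 0.0457), and edgeR gave 1.48 (adjusted p = 0.0440) and 3.75 (adjusted p = 3.18e-07). The lead window at −890 bp, overlapping the first by its edge, held 7.80 and 6.97 against 91.3 and 30.6 (2.16, SE 0.40, limma adjusted p = 0.000453). Its neighbour Ppbp, another ligand of platelets, had 3 windows and none was tested. Border macrophage marker TSS windows were higher in the same libraries (36.1 and 16.9 against 273 and 119), and their part in the Pf4 signal was not tested.

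**Figure D2:**
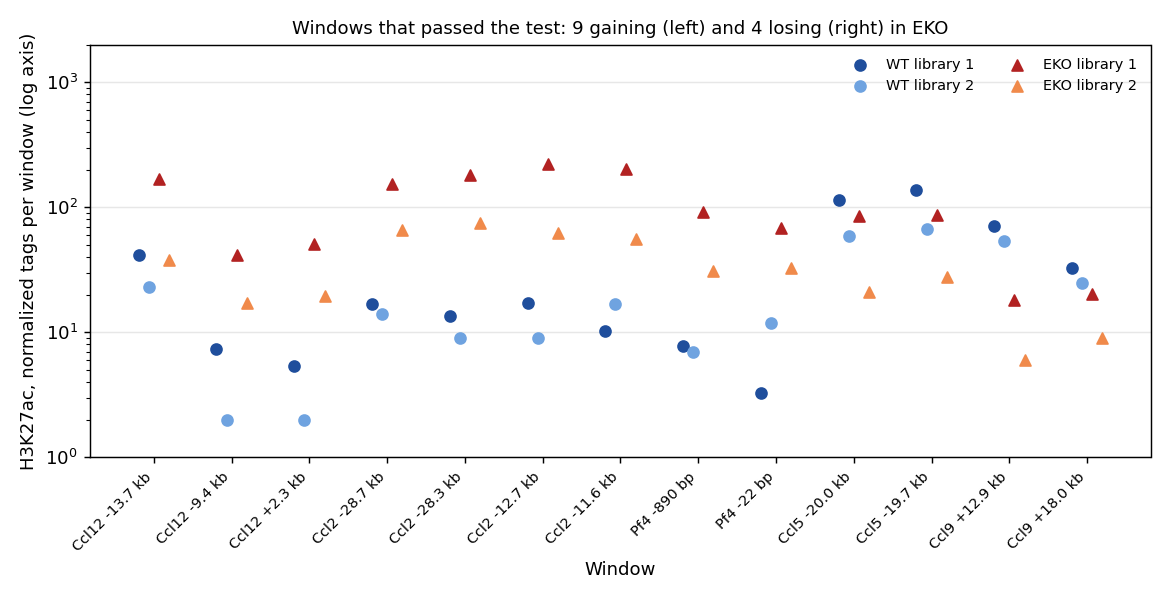
Normalized H3K27ac tags per window (log axis) in each of the 4 microglia libraries for the 13 called windows, named by gene and distance to the TSS. At Ccl2, Pf4 and the Ccl12 windows at −9381 and 2266 bp the EKO libraries (triangles) lie above the WT libraries (circles), and at Ccl9 they lie below.

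In the other cluster the 4 called windows went down, in 3 stretches once overlapping windows were merged. These losses, 10.3% of the tested member windows, are near the 7.56% of all tested windows that lost. The Ccl9 lead window at 12898 bp, downstream of this CCR1 ligand, held 70.6 and 53.7 tags in WT and 18.1 and 5.97 in EKO. EKO library 1 was below both WT libraries here although it stood highest over the table. The log2 change was −3.02 (SE 0.39, 8.12-fold lower, limma adjusted p = 9.55e-06). At 18033 bp, Ccl9 held 32.4 and 24.9 tags against 20.1 and 8.96 (−1.56, SE 0.45, limma adjusted p = 0.0152), a call that DESeq2 did not make and that edgeR lost without WT library 1, WT library 2 or EKO library 1 (adjusted p = 0.126, 0.0521 and 0.179). The Ccl9 TSS window held 77.6 and 21.9 tags in WT and 61.2 and 26.9 in EKO and did not pass (−0.28, SE 0.37, limma adjusted p = 0.629), although edgeR called it without WT library 2 (−1.02, adjusted p = 0.0162) and gave 0.38 without WT library 1. Its highest window, at 6194 bp, held 81.7 and 91.6 against 113 and 53.0 (−0.41, SE 0.25, limma adjusted p = 0.266).

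Ccl5, also called RANTES and a ligand of CCR1, had no TSS window, its nearest lying at −2891 bp. Its highest and lead window, at −19734 bp, held 137 and 66.7 tags in WT and 87.3 and 27.6 in EKO. Deposited tags overlapped because EKO library 1 exceeded WT library 2, and after quantile normalization the change was −1.21 (SE 0.25, 2.31-fold lower, limma adjusted p = 0.00133). The overlapping window at −20043 bp changed by −1.22 (SE 0.27, limma adjusted p = 0.00253). In edgeR without WT library 1 the adjusted p was 0.0520 and 0.0706 at these windows. The remaining 5 tested Ccl5 windows were not called.

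Ccl3 and Ccl4, the macrophage inflammatory proteins 1 alpha and beta, had no called window. The Ccl3 TSS window held 175 and 110 tags in WT and 338 and 94.8 in EKO (0.13, SE 0.17, limma adjusted p = 0.634), and the window at 9049 bp, its highest, held 221 and 157 against 348 and 107 (−0.19, SE 0.16, limma adjusted p = 0.423). Groups overlapped at both in deposited tags. The Ccl4 TSS window held 92.4 and 60.7 tags against 83.3 and 34.4 and had an adjusted p of 0.0340 with a log2 difference of −0.74 (SE 0.25, limma), which is under the fold of 2. Ccl6, a CCR1 ligand, was alike at its TSS window, with 93.2 and 48.8 tags against 78.3 and 28.4 (−0.77, SE 0.27, limma adjusted p = 0.0389), and edgeR called it without WT library 2 (−1.05, adjusted p = 0.00621).

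Ccl7, a ligand of CCR2 that lies next to Ccl2, was low in WT. Its TSS window held 6.57 and 1.99 tags in WT and 41.2 and 12.7 in EKO, without overlap, and its mean fell short of the 16 tags needed for the test. Cxcl13 was low at all 11 windows. Its highest, at −14147 bp, held 22.6 and 11.9 tags in WT and 6.02 and 7.47 in EKO, and no Cxcl13 window was tested. By WT mean the TSS windows ran from Ccl12 (432 ± 63.6 tags, SD, n = 2) through Ccl3 (143 ± 45.8), Ccl4 (76.5 ± 22.4), Ccl6 (71.0 ± 31.4), Ccl9 (49.7 ± 39.4), Ccl2 (40.0 ± 17.2) and Pf4 (7.61 ± 6.12) to Ccl7 (4.28 ± 3.24). From Ccl4 to Ccl2, neighbours in this order differed by less than their SD.

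**Figure D3:**
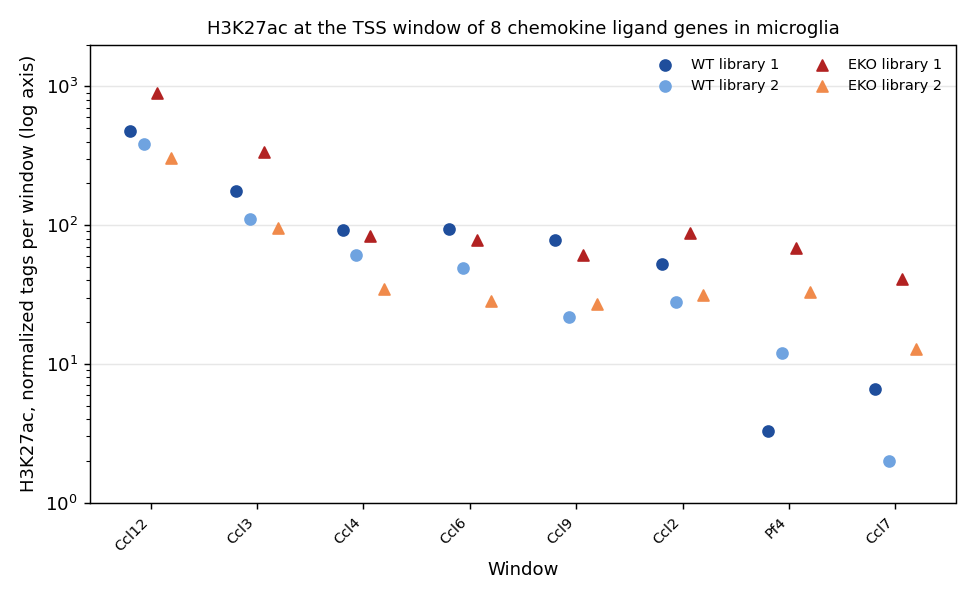
Normalized H3K27ac tags (log axis) at the TSS window of the 8 members that have one within 500 bp, in each of the 4 microglia libraries. Ccl12 is highest, and at Pf4 and Ccl7 both EKO libraries (triangles) lie above both WT libraries (circles).

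SALL1 peaks lay at most of these genes. The WT list put 23 of its 15410 peaks at 8 of the 10 members, with none at Pf4 or Ccl7 and 5 at Ccl2. A WT SALL1 peak lay in 21 of the 70 windows (30.0%), where 13.7% of all windows held one. The EKO list, with 7 peaks in all, had none here. By the authors' enrichment score, the highest-ranked of these WT peaks lay at the Ccl9 TSS (161, rank 888), the Ccl6 TSS (146, rank 1189), the Ccl12 TSS and the Ccl9 site at 6209 bp (both 142, rank 1284). None of the 4 losing windows held a WT SALL1 peak, and 3 of the 9 gaining windows did, those of Ccl2 at −12718 and −11638 bp and of Ccl12 at −13650 bp. Of the 26 tested windows that were not called, 13 did. SALL1 peaks also lay at the promoters of Ccl2, Ccl6, Ccl9 and Ccl12 whose H3K27ac was not called.

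The shorter SALL1 lists of the wild-derived strains held few peaks here. PWK had 5 of its 3627 SALL1 peaks at members, 4 at Cxcl13 and 1 near Ccl3. SPRET had 4 of its 2245 peaks, 3 at Cxcl13 and 1 at the Ccl6 TSS. Peaks of PWK lay in 7.14% of the member windows, against 3.42% of all windows, and those of SPRET in 5.71%, against 2.20%. The WT list placed 2 peaks at Cxcl13. The lists differ in size and were made separately, so these counts are a description.

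SMAD4, the shared partner of the SMADs that transmit TGF-beta signals, had 3 WT peaks at members, at the TSS of Ccl2 and Ccl12 and at 12986 bp from the Ccl9 TSS. They lay in 5 of the 70 windows (7.14%), where 4.89% of all windows held a peak, and peaks of the list labelled mutant lay in 3 (4.29%), against 3.03%, so neither count sets the members apart. The Ccl9 peak ranked highest of the 3 (rank 438 of 4024) and lies in the window that lost H3K27ac. The list labelled mutant, with 2333 peaks, had none there. It had 2 peaks at members, 1 at the Ccl12 TSS and 1 at −12700 bp from Ccl2 (score 73, rank 837), inside a window that gained H3K27ac and that holds a WT SALL1 peak (score 87). The WT SMAD4 list had no peak at that Ccl2 site. Whether a missing peak means less binding was not tested, since each list holds only peaks reproducible between libraries.

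p300, a histone acetyltransferase, had 15 of its 9177 WT peaks at 8 members. It lay in 18 of the 70 windows (25.7%), against 9.64% of all windows. The strongest was at the Ccl3 site 8995 bp from its TSS (229, rank 369), followed by Ccl9 at 6250 bp (182) and at its TSS (157). Peaks also lay at the TSS of Ccl2 (122), Ccl12 (136), Ccl4 (52) and Pf4 (22, rank 7923). Of the called windows, the 2 losing windows of Ccl5, which overlap, shared a peak, and Ccl2 at −11638 bp and Pf4 at its TSS held one each.

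In sorted nuclei, the H3K27ac regions at the chemokine genes lay mostly in PU1 nuclei. Regions covered 17723 and 63154 bp of the 163506 bp around the members in WT PU1 nuclei and 56745 and 55567 bp in EKO. In Olig2 nuclei they covered 1815 to 3481 bp and in NeuN nuclei 0 to 1032 bp. WT PU1 library 1 listed 11149 regions against 36057 in library 2, and 25990 and 26029 in EKO, so the WT libraries differ widely. Depth of these libraries is unknown. All 6 microglia markers had a covered TSS in both WT PU1 libraries and 5 of 6 in both EKO libraries. Border macrophage markers had 0 and 1 of 6 covered in WT and 3 of 6 in each EKO library, and the part of such cells was not tested.

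**Figure D4:**
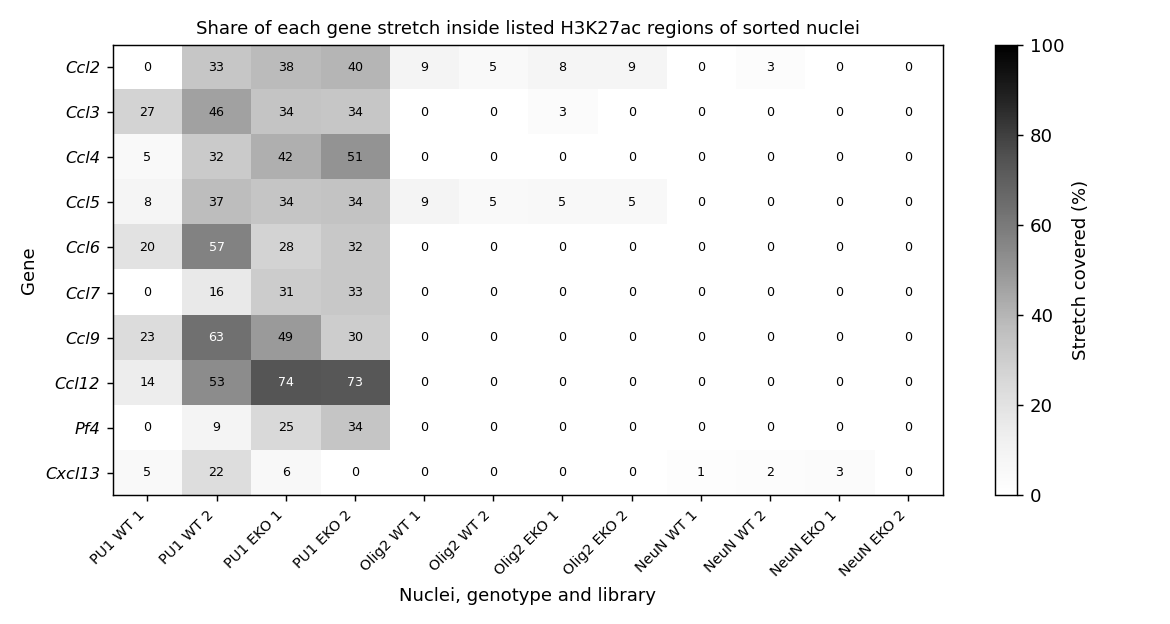
Percent of each gene stretch (its windows and its body with 5 kb on each side) inside listed H3K27ac regions, for each of 12 nuclei libraries. PU1 nuclei carry most of the coverage, and Ccl2, Ccl4, Ccl7, Ccl12 and Pf4 are covered further in both EKO libraries than in either WT library. At 8-fold over input this no longer holds for Ccl2, turns round for Ccl4 and is thin for Ccl7 (12.1% in WT library 2, 12.6% in EKO library 2). The order was not tested, and its share over all genes was not computed.

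In PU1 nuclei the covered share was larger in both EKO libraries than in either WT library at Ccl2, Ccl4, Ccl7, Ccl12 and Pf4. This order was not tested, and its share over all genes was not computed, so it is not read as a trait of these genes. With only regions of at least 8-fold over input, the EKO shares stayed above the WT shares at Ccl7, Ccl12 and Pf4. At Ccl7 the margin was thin (0 and 12.1% in WT against 30.8% and 12.6% in EKO). At this setting Ccl2 overlapped (0 and 33.3% against 24.2% and 26.3%) and Ccl4 turned round (4.86% and 23.0% against 3.82% and 0). On all listed regions the share at Ccl2 was 0 and 33.3% in WT and 37.9% and 40.0% in EKO, and that at Ccl4, where no window gained in sorted microglia, was 4.86% and 31.5% against 41.9% and 51.1%. The region at the Pf4 TSS was absent from WT library 1, held 12.5 tags in library 2, and held 432 tags over 2722 bp and 358 tags over 3215 bp in EKO. The region at the Ccl12 TSS ran over 1947 and 5463 bp in WT and over 28824 and 13799 bp in EKO, and its density was 59.3 and 129 tags per kb in WT against 140 and 141 in EKO. The covered share of the Pf4 stretch was 0 and 9.15% in WT and 24.9% and 33.9% in EKO, and of the Ccl7 stretch 0 and 16.4% against 30.8% and 32.7%. At Ccl6 the share was 19.8% and 57.0% in WT and 27.6% and 32.3% in EKO, and at Ccl9 23.4% and 63.4% against 48.5% and 30.4%, and both overlap. At Cxcl13 it was 4.83% and 22.4% against 5.64% and 0.

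The fixed list of other chemokine ligands had 40 tested windows, of which 17 gained and 4 lost H3K27ac, with a median log2 change of 0.80. Of all tested windows 8.68% gained and 7.56% lost, so the 4 losses are near that share. The gaining share is not independent of the filter, which windows low in WT could pass through their EKO values. Cxcl1, Cxcl2 and Cxcl16 held 4 gaining windows each, and overlapping windows were not merged here. The leading genes were Cxcl16, which is made in membrane-bound form, Cxcl1, a ligand for neutrophils, Cxcl17 and Cxcl11. Cxcl16 at −8120 bp held 16.4 and 13.9 tags in WT and 228 and 71.7 in EKO (2.65, SE 0.28, limma adjusted p = 7.26e-07). Cxcl1 at −38223 bp held 3.69 and 3.98 against 140 and 41.8 (3.42, SE 0.42, limma adjusted p = 4.95e-06). All 4 losing windows belonged to Cxcl17.

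Among the chemokine receptors, 16 of 140 tested windows gained and 14 lost, with a median log2 change of −0.27, and both counts are near the shares over all tested windows (8.68% and 7.56%). Cxcr4, Ccrl2 and Ccr6 were among the leading genes. Cxcr4 at −113115 bp held 4.93 and 1.99 tags in WT and 363 and 79.2 in EKO (4.73, SE 0.37, limma adjusted p = 1.91e-08), and Ccr6 at −21429 bp held 543 and 195 against 225 and 73.9 (−1.58, SE 0.21, limma adjusted p = 1.19e-05). Ccr1, a receptor for Ccl3, Ccl5, Ccl6 and Ccl9, gained 1 and lost 2 of 23. Ccr2, the receptor for Ccl2, Ccl7 and Ccl12, gained 1 of 3, Ccr3 gained 2 of 7, and Cxcr5, the receptor for Cxcl13, lost 1 of 5. For Ccr2 and Cxcr5, edgeR gave the same counts, and DESeq2 called no window of either gene.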

How the data were processed

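The authors mapped ChIP-seq reads to mm10 with Bowtie2 and made tag directories and peaks with HOMER. The deposited microglia table holds coverage signal in tags, scaled to 10000000 per library, in 133129 windows of 1000 bp. Values were whole multiples of 1 tag (100% within 0.05 tags), which gave depths of 24357800, 10047700, 9963450 and 13392900 tags in WT libraries 1 and 2 and EKO libraries 1 and 2. For nuclei the authors deposited called regions with their tag signal and the ratio to input. The deposited peak lists hold an IDR score and an enrichment score for 1 reproducible set per group.

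Windows with a mean above 16 tags were tested with limma 3.58.1 (R 4.3.3, trend) on quantile-normalized log2(tags + 1), EKO minus WT, at an adjusted p of 0.05 and a fold of 2. The pseudocount understates changes of low windows. As alternatives, whole tags went into edgeR 4.0.16 and DESeq2 1.42.0, and the fits were tested on simulated data under the same filter. Overlap was 1 bp. For each member the TSS window (within 500 bp), the lead window (smallest p) and the highest WT window are named, plus called windows, and 4 genes of each other list by smallest p. Members, lists and the normalization were chosen with earlier results of these data known. Input libraries were not used here, and 1 receptor gene is not reported here.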

Additional observations from a re-analysis of the deposited data

How the results depend on the processing

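As deposited, no member window gained (0 against 9) or lost (0 against 4), other ligands had 2 gaining and 0 losing, receptors 2 and 0, and 0 of 15 named tested windows were called (5 otherwise). Leaving out 1 library in limma left 1 residual degree of freedom, with the lone library assumed to vary like the other group, and gave 0 to 5 gaining and 0 to 1 losing member windows, 0 to 5 gaining and 0 to 3 losing windows of other ligands, 0 to 8 and 0 to 6 of receptors, and 0 to 2 named windows. Without WT replicate 1 or EKO replicate 1 no window of the table was called, with smallest adjusted p of 0.0837 and 0.0622. edgeR without a library, added after the data were seen, called 7 of the 9 gaining and 1 of the 4 losing windows in every fit; the lowest losing count was 1, without WT replicate 1. These fits also made calls at Ccl12 (−1448 bp), Ccl6 (21 bp) and Ccl9 (88 bp), with 5 to 7 of the 15 named windows called. DESeq2 called 2 losing windows of other ligands.

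Signs of uncalled windows turned. With 1 library left out in limma, Ccl2 at −51 bp ran from −0.084 to 0.40 (edgeR −0.065 without WT replicate 2), Ccl12 at −144 bp from −0.12 to 0.16 (edgeR −0.053 without WT replicate 1; −0.014 in limma without EKO replicate 2) and Ccl9 at 88 bp from −0.97 to 0.38 (edgeR 0.38 without WT replicate 1). Ccl3 at 9049 bp was 0.050 as deposited, and at −179 bp −0.012 and −0.069 in edgeR without WT replicate 2 and EKO replicate 1. All 13 called windows kept their direction in all alternatives. The replicate block gave 9 gaining and 4 losing member windows. With levels removed by quantile normalization, same-numbered libraries did not deviate together (r = 0.036), so the numbers were not taken as pairs. This r cannot see a shared level. As deposited, log2 medians were higher in library 1 than in library 2 in both genotypes (WT 5.57 and 5.20, EKO 6.41 and 4.95). Upper-half peaks left 15 SALL1 WT, 3 PWK and 8 p300 peaks. Covered bp moved in EKO PU1 nuclei to 37963.5 (fold of 8), 43169.5 (0 kb) and 76583.5 (20 kb), in EKO Olig2 to 1835, 2124 and 3762.5, and with 20 kb in NeuN to 2341.5 (WT) and 2494.5 (EKO). With 2 libraries a group, only large differences pass.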
